A study of Mus musculus with 60 samples.

Results

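Potassium channels were followed as a gene family: all entries whose symbol begins with Kcn, without Kcnj13, Kcnq1ot1 and the antisense, opposite-strand and pseudogene forms, which left 93 of the 47597 entries in each table. Messenger RNA had been sequenced from brain tissue of mice aged 3 months in 60 libraries, which the labels divide into 10 groups of 6 (3 males and 3 females each). The labels of 1 library (female 3 of striatum KO/+) conflict, its title giving Δ12 and its genotype field KO as the line, and the genotype field was followed. The strain in the labels is c57BL-6N, and 2 lines were used. In the Δ12 line, part of exon 12 of Htt, the huntingtin gene, is deleted, and the labels give +/+, Δ12/+ and Δ12/Δ12 mice. In the KO line, which is descended from a single founder with an imprecise deletion that removed a splice donor of Htt, they give +/+ and KO/+ mice. Cortex and striatum were labelled for each genotype. The values are FPKM, fragments scaled for transcript length and sequencing depth, divided here by 1 factor per library (median of ratios) and called rescaled FPKM.

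The labels were contradicted by expression in many libraries, so the family is described first by sets of libraries defined from expression. In 30 libraries, called cortex-like, the deposited FPKM of Slc17a7, which loads glutamate into the vesicles of cortical neurons, lay from 120.8 to 233.8. In the other 30, called striatum-like, it lay from 4.81 to 64.75. By their labels, 15 of the cortex-like libraries were cortex and the other 15 striatum, so set and labelled tissue matched in 30 of 60. Sex-linked transcripts matched the labelled sex in 30 of 60 libraries. The cortex-like set was made up of all Δ12-line +/+ and Δ12/+ libraries and the Δ12/Δ12 libraries labelled male, whatever their labelled tissue, and the striatum-like set of the Δ12/Δ12 libraries labelled female and the whole KO line. The KO line thus lies in 1 set, while the Δ12 line holds both, 30 libraries cortex-like and 6 striatum-like. All 8 markers of striatal projection neurons were higher in the striatum-like set without overlap, with a summed median of 1459 against 153.9 rescaled FPKM. Of 7 markers of cortical excitatory neurons, Slc17a7 alone, which had made the split, was free of overlap. Of 4 interneuron markers, 3 (Pvalb, Sst and Vip) were higher in the cortex-like set without overlap, Vip with medians of 31.87 against 0.5459 rescaled FPKM, and Chat of cholinergic interneurons was higher in the striatum-like set (0.389 against 4.50). Within bins of transcript length, described below, Pvalb and Sst overlapped. The depth implied by the deposited confidence bounds ran from 12.7 M to 27.5 M fragments, with medians of 14.45 M in the cortex-like and 18.25 M in the striatum-like set.

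Potassium channels let potassium ions leave or enter cells and so set the resting potential, the shape of the action potential and the rate of firing. Voltage-gated channels (Kv) open on depolarization, the Kv7 channels carry the slow M-current, calcium- and sodium-activated channels follow ion load, inward rectifiers and 2-pore channels hold the membrane near rest, and auxiliary subunits change gating and trafficking. In the striatum, projection neurons are known for strong inward rectification and slowly inactivating A-type currents, which keep them silent between bursts of input.

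The 2 members with the widest difference in each direction, among those whose ranges in the sets defined above did not overlap, are shown by their promoters, since the contrast between the sets is clearest in them. They are Kcnt2, a sodium-activated channel (ENSMUSG00000052726, GRCm38 chr1:140246158-140612067), Kcnj6, a G protein-gated inward rectifier (ENSMUSG00000043301, chr16:94749266-94997696), Kcnn3, a small-conductance calcium-activated channel (ENSMUSG00000000794, chr3:89520164-89675132), and Kcnj10, an inward rectifier of glia (ENSMUSG00000044708, chr1:172341210-172374085). Each sequence is a RefSeq promoter of 300 bases on GRCm38.p6, 5′ to 3′ on the strand of the gene, and capitals mark matches of the GC box on either strand. For Kcnj6, RefSeq gives a pair of promoters, and the one at the start of the gene as the tables give it is shown.
Kcnt2, chr1:140245468-140245767, plus strand: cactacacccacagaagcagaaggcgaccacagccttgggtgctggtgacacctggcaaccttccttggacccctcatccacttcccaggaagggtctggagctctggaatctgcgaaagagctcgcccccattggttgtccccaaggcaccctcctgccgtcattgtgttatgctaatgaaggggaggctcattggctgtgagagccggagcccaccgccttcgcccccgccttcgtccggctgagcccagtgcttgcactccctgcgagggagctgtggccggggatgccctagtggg
Kcnj6, chr16:94997647-94997946, minus strand: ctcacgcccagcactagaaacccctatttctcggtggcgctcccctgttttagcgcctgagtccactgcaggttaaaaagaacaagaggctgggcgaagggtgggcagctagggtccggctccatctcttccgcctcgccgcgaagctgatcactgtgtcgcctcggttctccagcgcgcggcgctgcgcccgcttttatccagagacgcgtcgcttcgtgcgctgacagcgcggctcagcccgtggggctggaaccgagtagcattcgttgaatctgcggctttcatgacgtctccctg
Kcnn3, chr3:89519914-89520213, plus strand: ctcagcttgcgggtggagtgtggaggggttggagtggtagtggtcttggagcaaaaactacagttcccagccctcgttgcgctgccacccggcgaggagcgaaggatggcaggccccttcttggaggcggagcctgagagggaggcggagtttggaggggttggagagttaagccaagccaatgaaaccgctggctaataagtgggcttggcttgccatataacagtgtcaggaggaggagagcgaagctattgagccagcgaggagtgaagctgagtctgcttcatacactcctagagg
Kcnj10, chr1:172340960-172341259, plus strand: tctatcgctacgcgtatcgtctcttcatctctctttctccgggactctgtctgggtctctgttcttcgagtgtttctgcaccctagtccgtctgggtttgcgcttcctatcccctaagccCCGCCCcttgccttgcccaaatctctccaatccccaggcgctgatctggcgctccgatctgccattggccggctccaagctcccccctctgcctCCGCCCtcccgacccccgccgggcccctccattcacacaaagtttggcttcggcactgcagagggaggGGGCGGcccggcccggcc
The windows of Kcnt2, Kcnj6 and Kcnn3 shown here hold no match of the GC box (GGGCGG), and that of Kcnj10 holds 3. RefSeq promoters were found for 68 members. A GC box on either strand lay in a promoter of 63.2% of these members and of 38.2% of the 27025 genes in the table, a TATA box (TATAAA) in 5.88% against 15.7%, an E-box (CACGTG) in 8.82% against 8.09%, and a cAMP response element in 0% against 2.03%. These shares describe letters in the windows only.

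Of the 93 members, 71 had a mean of at least 0.5 rescaled FPKM over the 60 libraries. The other 22 were below it, and of these Kcnk16 was listed at 0 in every library. Ranges of the sets did not overlap for 30 of the 71. In 6 of them, 8.45%, the cortex-like set was higher, while 16.9% of the 16076 entries used were so. In 24, 33.8%, the striatum-like set was higher, against 19.3% of all entries used. The median log2 difference, cortex-like minus striatum-like, was -0.25 over the 71 members and -0.03 over all entries. These are descriptions, since the sets were made from expression in the same libraries. The split between the directions depended on scaling. With FPKM as deposited, which moved the median log2 difference of all entries to 0.19, 11 members were higher in the cortex-like and 15 in the striatum-like set. Of all entries used, 20.86% and 9.875% were so under that setting. With scaling within 20 bins of transcript length, the numbers were 11 and 16. These were 15.49% and 22.54% of the members, against 14.35% and 17.07% of all entries, nearer to each other than in the main scaling. Within the Δ12 line alone, 8 members were higher in the cortex-like and 28 in the striatum-like libraries, against 19.9% and 23.3% of all entries used. With fewer libraries, members can only be added to those apart. Kcnj10 was there at 1.91 to 11.0 rescaled FPKM in the 30 cortex-like and at 28.7 to 39.1 in the 6 striatum-like libraries, and Kcnj6 at 32.1 to 78.9 and 2.80 to 5.45.

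**Figure D1:**
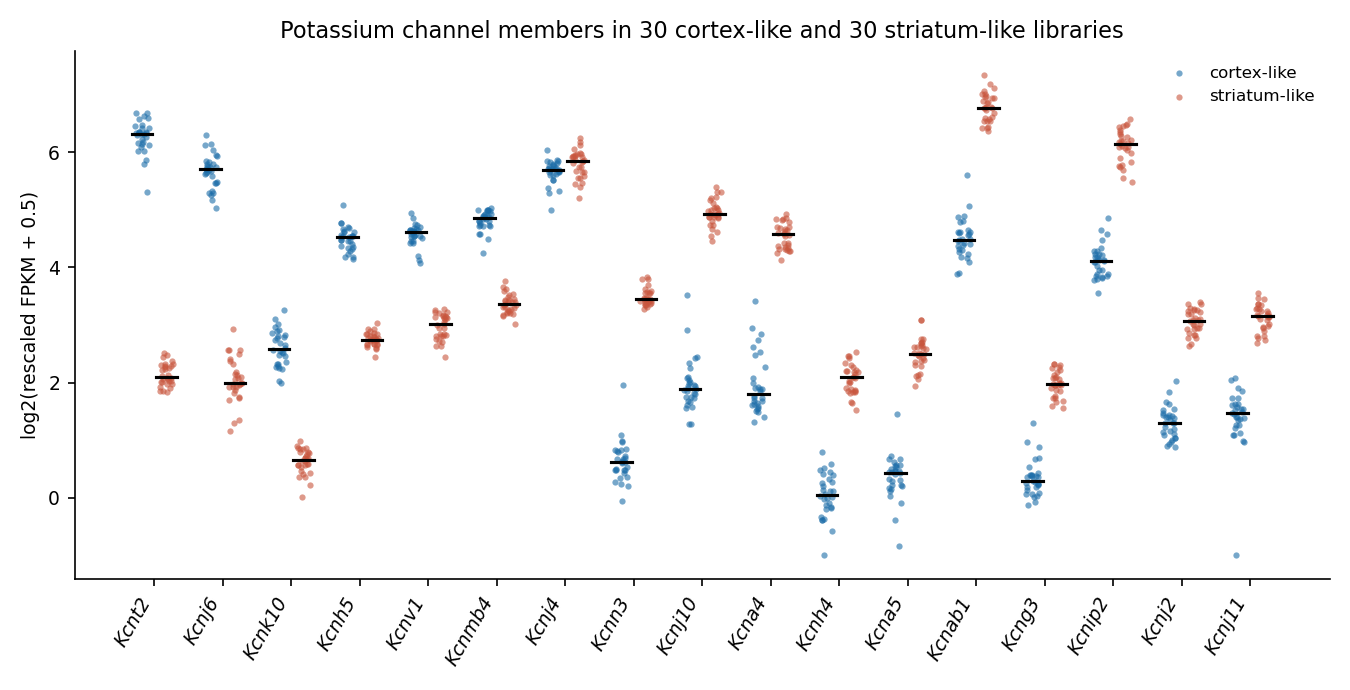
Level of 17 members in each library, as log2(rescaled FPKM + 0.5), for the 30 cortex-like (blue) and 30 striatum-like (red) libraries. Black bars are medians. The 6 members on the left were higher in every cortex-like library, Kcnj4 overlapped, and the 10 on the right were higher in every striatum-like library.

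Length is given beside this contrast because the sets differed by it across the genome. Over 10573 protein-coding entries, the log2 difference fell with transcript length (Spearman's rho of -0.43 across genes, which are not independent replicates). The median log2 difference was 1.07 in the tenth of entries with the shortest transcripts and -0.79 in that with the longest. Over the 64 members among those entries, rho was -0.12. The members' median transcript length was 3940 bases against 3530 for all. The part of length in any single difference was not tested, so counts are also given below under scaling within length bins.

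The voltage-gated Kv1 to Kv4 channels gave the most one-sided class. Of 15 members used, 9 were higher in the striatum-like set without overlap, none in the cortex-like set, and 12 had the higher median in the striatum-like set. Their summed level had a median of 221.2 rescaled FPKM, from 197.9 to 246.5, in the striatum-like set. In the cortex-like set it was 88.84, from 76.93 to 116.6. The sums of the sets were thus apart in all 60 libraries. Within length bins, 5 members were higher in the striatum-like and 1 in the cortex-like set.

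Kcna4, a Kv1 subunit of A-type current, was at 1.97, 3.00 and 10.2 rescaled FPKM (lowest, median and highest) in the cortex-like set and at 16.9, 23.4 and 29.9 in the striatum-like set. The ratio of the medians was 7.78. Kcnd2, the main Kv4 subunit of somatodendritic A-type current, had medians of 10.0 and 33.6 rescaled FPKM, a ratio of 3.35, and its highest cortex-like value was 14.7 against a lowest striatum-like value of 26.7. Kcna1, a Kv1 subunit of axons, had medians of 10.9 and 31.5. Kcna5, a delayed rectifier subunit of low level in these libraries, had medians of 0.850 and 5.16. The sets stayed apart for all 4 of these, also within length bins. Kcna2 and Kcnd1 and, from other classes, Kcnh2 and Kcne1l were also apart and higher in the striatum-like set, with ratios of the medians from 1.76 for Kcnd1 to 3.08 for Kcne1l. Of these, Kcne1l alone stayed apart within length bins.

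The Kv3 subunits, which serve fast spiking, did not move as 1 group. Kcnc1 was higher in the striatum-like set without overlap, with medians of 25.2 against 9.16 rescaled FPKM. Kcnc2 had medians of 8.28 in the cortex-like and 6.54 in the striatum-like set, and its striatum-like libraries ranged from 2.66 to 18.7, wider than those of the cortex-like set (6.79 to 11.2). Kcnc1 overlapped within length bins.

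Electrically silent Kv subunits form no channel alone and alter Kv2 channels. Of 9 used, 7 overlapped. Kcnv1, a silent subunit of cortex, was at 16.4, 24.1 and 30.4 rescaled FPKM in the cortex-like set and at 4.97, 7.55 and 9.22 in the striatum-like set, a ratio of the medians of 3.18. Kcng3 went the other way, with medians of 0.715 and 3.43. Kcng1 had medians of 1.84 and 7.40, and its ranges met narrowly, the highest cortex-like value being 4.20 and the lowest striatum-like one 4.09. Kcnf1, the second most abundant of the class, had medians of 11.5 and 9.62, and Kcns2 of 4.39 and 6.64, both with overlap.

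Of the 4 Kv7 members used, 2 were higher in the striatum-like set without overlap. Kcnq3, a subunit of the M-channel, was at 9.89, 14.5 and 23.9 rescaled FPKM in the cortex-like and at 32.0, 37.3 and 44.0 in the striatum-like set, a ratio of the medians of 2.57. Kcnq5, which also carries M-current, was at 3.20, 5.11 and 7.06 in the cortex-like and at 11.0, 15.2 and 19.6 in the striatum-like set, a ratio of 2.97. Within length bins, both overlapped.

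Among the Kv10 to Kv12 channels, Kcnh5 (Kv10.2) was higher in the cortex-like set, with a lowest value there of 17.2 rescaled FPKM and a highest striatum-like value of 7.65. Its medians were 22.5 and 6.22. Kcnh4 and Kcnh3, the Kv12 channels of forebrain, were higher in the striatum-like set, Kcnh4 with medians of 0.534 and 3.75 and Kcnh3 with 9.80 and 22.2. Kcnh3 overlapped within length bins, where 3 members of the class were higher in the cortex-like and 1 in the striatum-like set.

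Calcium- and sodium-activated channels held the largest difference of the family, and their summed level was the higher one in the cortex-like set (median 133.1 against 68.58 rescaled FPKM). Without Kcnt2 the medians were 53.03 and 64.83, so the direction of the sum rested on that gene. Kcnt2 was at 39.1, 79.7 and 103 rescaled FPKM in the cortex-like set and at 3.09, 3.80 and 5.24 in the striatum-like set. The ratio of the medians was 21.0, and every cortex-like library was above every striatum-like one. Kcnt1, the other sodium-activated channel, was higher in the striatum-like set, with medians of 8.72 and 18.4, and overlapped within length bins. Kcnn3 was at 0.459, 1.03 and 3.38 in the cortex-like set and at 9.23, 10.4 and 13.8 in the striatum-like set, a ratio of 10.0. Kcnma1, the large-conductance BK channel, had medians of 28.0 and 24.8 with overlap, and within length bins it was higher in the cortex-like set without overlap (log2 difference 1.07 against 0.18). Kcnmb4, the neuronal BK auxiliary subunit, had medians of 28.5 and 9.79 without overlap. Within length bins it overlapped, with a log2 difference of 0.71 against 1.54. Of its exon bases, 31.5% were shared with opposite-strand genes, and the use of strand in counting is not given in the sources used here.

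**Figure D2:**
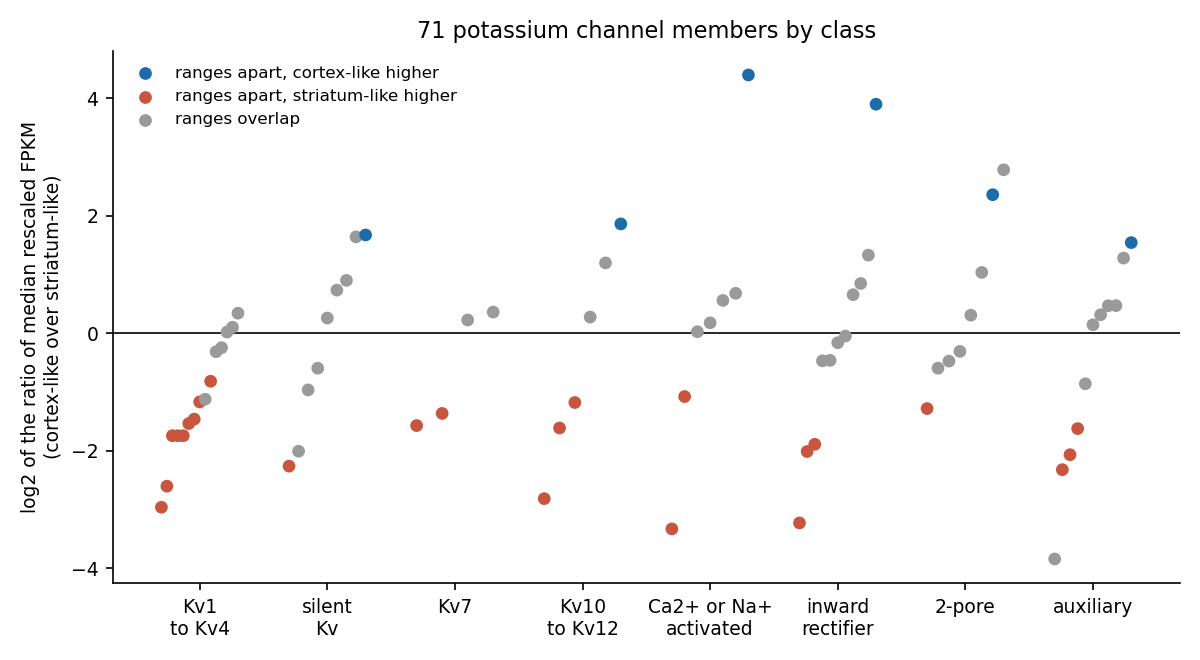
Log2 of the ratio of the median rescaled FPKM, cortex-like over striatum-like, for the 71 members used, 1 point per member, by class. Blue and red points are members whose ranges did not overlap (6 and 24), grey points overlapped. Kcnt2 and Kcnj6 stand highest, and the Kv1 to Kv4 class lies mostly below 0.

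Inward rectifiers went both ways. Kcnj6 was at 32.1, 51.8 and 78.9 rescaled FPKM in the cortex-like set and at 1.73, 3.48 and 7.10 in the striatum-like set, a ratio of the medians of 14.9. Kcnj3, which assembles with Kcnj6 into the G protein-gated channel, had medians of 21.0 and 8.37, and its ranges met (13.5 as the lowest cortex-like and 13.5 as the highest striatum-like value). Kcnj2 and Kcnj4 are the classical rectifiers of striatal projection neurons. Kcnj2 was higher in the striatum-like set, with medians of 1.96 and 7.92 and no overlap. Kcnj4, far more abundant per length, was at 31.3, 51.3 and 65.0 in the cortex-like and at 36.6, 57.4 and 75.7 in the striatum-like set, so the sets overlapped almost fully. Kcnj11, the pore of the ATP-sensitive channel, had medians of 2.26 and 8.39.

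Several members are known from cells other than neurons, and their markers are given beside them. Kcnj10, at 1.91, 3.20 and 11.0 rescaled FPKM in the cortex-like and at 21.4, 30.0 and 41.4 in the striatum-like set, differed by a ratio of 9.37. The summed astrocyte markers overlapped between the sets (medians 152.4 and 143.1), with none of 5 apart, while the summed oligodendrocyte markers had medians of 743.7 and 1674, with no overlap of the sums. Kcnj16, the astrocytic partner of Kcnj10, did not follow it, with medians of 1.65 and 1.70. Kcnj8 of mural cells had medians of 1.59 and 0.885 with overlap, beside summed mural markers of 19.19 and 20.03. These markers did not move as 1 group. Pdgfrb (0.8563 and 3.713) was apart and higher in the striatum-like set, also within length bins, while Rgs5 (15.92 and 13.18) and Acta2 (2.451 and 3.301) overlapped. Kcnk13, a 2-pore channel of microglia, had medians of 4.55 and 3.68, while the summed microglial markers were higher in the striatum-like set (27.63 against 46.1). Of these markers, Cx3cr1 (2.635 and 10.58) and Csf1r (7.506 and 17.65) were apart, Csf1r with overlap within length bins. P2ry12 (10.27 and 9.928) and Tmem119 (6.602 and 6.904) overlapped with medians close to each other. Kcnk6 (0.254 and 0.612) and Kcnmb1 (0.0328 and 0.197) were too low to be used, as their intervals show: for Kcnk6 the deposited bounds lay a median of 91.7% from the value in the cortex-like set.

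Of the 8 2-pore channels used, 1 was apart in each direction. Kcnk2 (TREK-1), a mechano- and lipid-gated leak channel, was at 3.60, 15.4 and 23.2 rescaled FPKM in the cortex-like and at 25.9, 37.4 and 48.2 in the striatum-like set, with 12.2% of its exon bases shared with an opposite-strand gene. Kcnk10 (TREK-2), its close relative, went the other way, with medians of 5.50 and 1.07. Kcnk1 had medians of 15.1 and 20.9 with overlap, and was higher in the striatum-like set without overlap within length bins.

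Auxiliary subunits carried the largest summed level of the striatum-like set, a median of 286.7 rescaled FPKM against 145.8 in the cortex-like set. Kcnab1 and Kcnip2 had the highest medians of the class in the striatum-like set, and the sum without them was not taken. Of 11 members used, 3 were higher in the striatum-like and 1 in the cortex-like set without overlap, and 7 overlapped. The median log2 difference was 0.13, and 6 of the 11 had the higher median in the cortex-like set. Kcnab1, a Kv1 beta subunit that brings inactivation, was at 14.3, 21.9 and 48.4 rescaled FPKM in the cortex-like and at 82.2, 109 and 163 in the striatum-like set. Kcnip2, which binds Kv4 channels, had medians of 16.9 and 70.7, a ratio of 4.19, and no overlap. Kcnab2 had medians of 31.7 and 57.6 with overlap. Kcnab1 and Kcnip2 thus lay on the same side as Kcna4 and Kcnd2, the pore subunits they attach to, also within length bins. Other members of their kinds had the higher median in the cortex-like set, with overlap. These were Kcnip1 (7.34 and 5.30), Kcnip3 (18.4 and 14.8), Kcnip4 (7.71 and 6.99) and the beta subunit Kcnab3 (6.61 and 4.78).

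Genes outside the family that bind or anchor these channels gave 1 of 20 used higher in the cortex-like set and 6 higher in the striatum-like set. The 1 was Dpp10, a Kv4 auxiliary subunit (66.4 against 13.09 rescaled FPKM in median), while Dpp6, the other one of its kind, was higher in the striatum-like set (24.31 against 46.61). Hcn2, a pacemaker channel, had medians of 7.748 and 46.68, and Ank3, the anchor of Kv7 channels at the axon initial segment, of 60.64 and 164.7.

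Kcne2, known from choroid plexus epithelium, followed the markers of that tissue across libraries. It ranged from 0 to 3.66 rescaled FPKM in the cortex-like and from 0.0950 to 8.77 in the striatum-like set, and the summed choroid plexus markers ranged from 1.845 to 377.4 and from 34.24 to 2090. In the cortex-like set Kcne2 was near the floor, with a median of 0.204 and 6 libraries at 0. Its deposited bounds there lay a median of 82.5% from the value, which limits the relation in that set. On the log2 scale, Pearson's r was 0.94 in the 30 striatum-like libraries and 0.83 in the 30 cortex-like ones, and Spearman's rho was 0.95 and 0.83 (permutation test, two-sided p = 1e-05 each, the smallest that 100000 resamples can give, adjusted p of 3e-05 for r and 6e-05 for rho over 12 relations). Without the 2 libraries farthest from the median of the markers, r was 0.96 and 0.77. Kcnj10 and Kcnj16 followed the astrocyte markers in the striatum-like set (r of 0.81 and 0.69, rho of 0.71 and 0.66, adjusted permutation p of r 3e-05 each, r of 0.72 and 0.62 without the 2 farthest libraries). In the cortex-like set r was 0.33 and 0.20 (adjusted permutation p of 0.117 and 0.346). Kcnk13 ran against the microglial markers in the cortex-like set (r of -0.56, rho of -0.60, adjusted permutation p of 0.00418 and 0.00173, r of -0.52 without the 2 farthest) and gave r of -0.15 in the striatum-like set (adjusted permutation p of 0.46). For Kcnk6, below the filter as given above, r with microglial markers was 0.31 in the cortex-like and 0.33 in the striatum-like set (adjusted permutation p of 0.131 and 0.117). For Kcnj8 with mural markers r was 0.43 in the cortex-like set (adjusted permutation p of 0.04), with rho of 0.18 (0.422) and r of -0.07 without the 2 farthest libraries, so that relation rested on those libraries. In the striatum-like set its r was -0.10 (0.609).

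**Figure D3:**
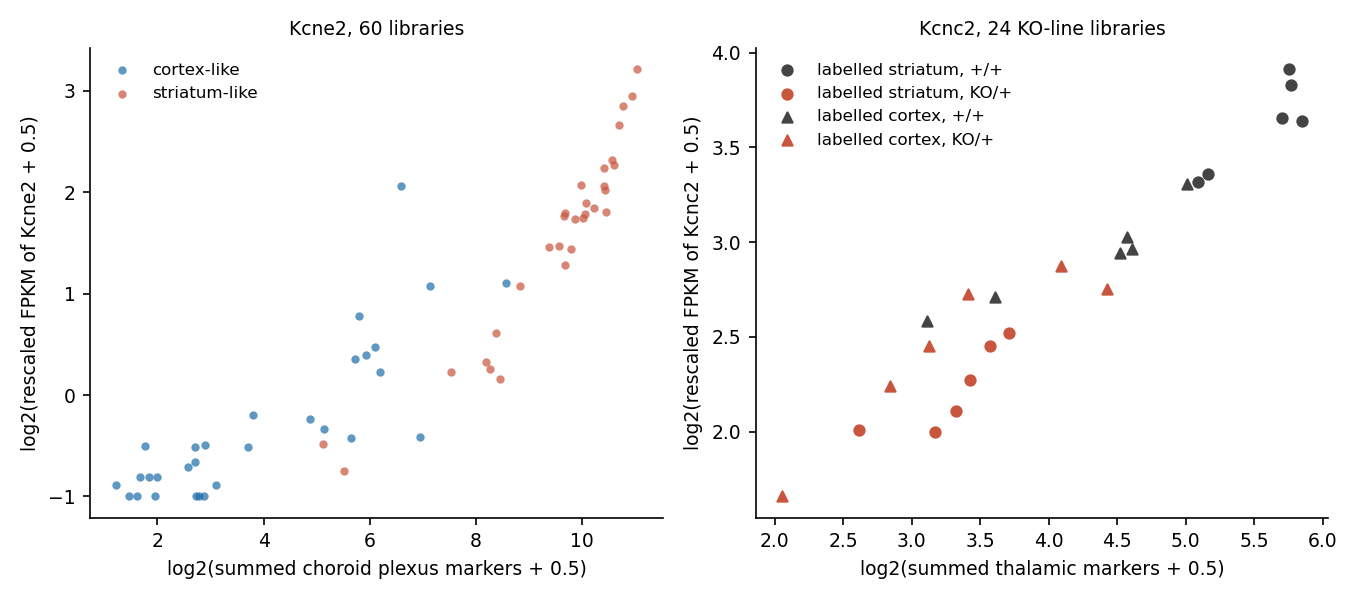
Left, Kcne2 against the summed choroid plexus markers in 30 cortex-like (blue) and 30 striatum-like (red) libraries. Right, Kcnc2 against the summed thalamic markers in the 24 KO-line libraries, circles for labelled striatum and triangles for labelled cortex, dark for +/+ and red for KO/+. All axes are log2(rescaled FPKM + 0.5), and both members rise with the markers.

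The labelled genotypes were then compared, within each labelled tissue and line, with limma on log2(rescaled FPKM + 0.5). In the KO line, Htt itself was at 16.8 to 20.7 rescaled FPKM in the 6 +/+ libraries labelled striatum and at 12.7, 13.7, 15.4, 18.2, 18.3 and 19.7 in the 6 labelled KO/+. Some libraries labelled KO/+ thus had as much Htt as the +/+ ones. FPKM of the whole gene do not tell the alleles apart, and directions below are between libraries as labelled. All 12 are striatum-like.

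Potassium channels were called in this comparison more often than entries at large. Of 71 members tested, 29 had a Benjamini-Hochberg adjusted p under 0.05 (40.8%), against 6.91% of the 15808 entries tested, with 15 members higher and 14 lower in libraries labelled KO/+. The 5 lower members with the largest log2 differences were Kcnc2, Kcng4, Kcnab3, Kcnip1 and Kcnc4, the last 2 at -0.67 each, and the 4 such higher members were Kcnip2, Kcnj4, Kcnh3 and Kcnh1. With FPKM as deposited, 11 members were called, 0 higher and 11 lower, beside 306 of 15500 entries. There the median log2 difference of all entries moved from 0.02 to -0.06, and all 15 higher members remained positive with none called. Scaling within length bins gave 15 higher and 14 lower, beside 1027 of 16218 entries. Leaving out 1 library at a time called 18 to 32 members, 23 without the KO/+ female 3 library whose title and genotype field differ. The count of all entries moved too. It was 560 of 15800 beside 18 members without male 1 of +/+, and 1243 of 15817 beside 32 without male 3 of +/+.

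Kcnc2, a Kv3 channel subunit (ENSMUSG00000035681, GRCm38 chr10:112271123-112466304), was at 9.47, 9.75, 12.0, 12.1, 13.7 and 14.6 rescaled FPKM in libraries labelled +/+ and at 3.49, 3.53, 3.81, 4.33, 4.97 and 5.25 in those labelled KO/+. Every KO/+ library was below every +/+ library. The log2 difference was -1.39 ± 0.13 (SE, n = 6 and 6, limma adjusted p = 0.00071). Kcnab3, a beta subunit, was at 6.51, 6.53, 6.60, 6.87, 7.97 and 8.28 in +/+ and at 3.00, 3.03, 3.36, 3.40, 3.49 and 4.43 in KO/+, also apart. Its log2 difference was -0.95 ± 0.10 (SE, limma adjusted p = 0.00090).

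Kcng4, a silent subunit, was at 2.45, 2.46, 3.41, 3.49, 4.03 and 4.50 rescaled FPKM in +/+ and at 1.04, 1.14, 1.23, 1.61, 1.71 and 1.83 in KO/+ (SE of the log2 difference 0.16, limma adjusted p = 0.0064). Kcnc1 had means of 34.5 ± 4.82 and 22.1 ± 1.46 (SD, n = 6 each; log2 difference -0.62, limma adjusted p = 0.0050). Kcnip4, a Kv4-binding protein, had means of 8.87 ± 0.84 and 6.26 ± 0.43 (SD; log2 difference -0.47, limma adjusted p = 0.0054). All 3 were lower in every KO/+ library than in any +/+ one.

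Among members higher in KO/+, Kcnj4 was at 36.6, 43.2, 43.9, 47.6, 50.0 and 52.9 rescaled FPKM in +/+ and at 57.9, 61.3, 62.6, 65.8, 69.6 and 72.4 in KO/+, again without overlap (log2 difference 0.51 ± 0.09 SE, limma adjusted p = 0.0094). Kcnip2 was at 44.4, 53.2, 54.8, 56.2, 65.7 and 67.7 in +/+ and at 72.7, 74.1, 81.7, 87.0, 88.5 and 89.4 in KO/+ (0.53 ± 0.10 SE, limma adjusted p = 0.012). The log2 differences of the other 13 higher members lay between 0.27 for Kcnt2 and 0.50 for Kcnh3. By class, Kv10 to Kv12 gave 3 higher and 0 lower of 6 tested, Kv7 2 higher and 0 lower of 4, Kv1 to Kv4 3 higher and 4 lower of 15, auxiliary subunits 2 higher and 4 lower of 11, silent subunits 1 higher and 2 lower of 9, inward rectifiers 2 and 2 of 11, 2-pore channels 1 and 2 of 8, and calcium- or sodium-activated channels 1 and 0 of 7. Of the 15 higher members, 10 were among those higher in the striatum-like set, and of the 14 lower ones 4 were. Among members not called, 10 were higher in the striatum-like set, 4 in the cortex-like set, and 28 overlapped. The same shares over all called entries were not taken.

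**Figure D4:**
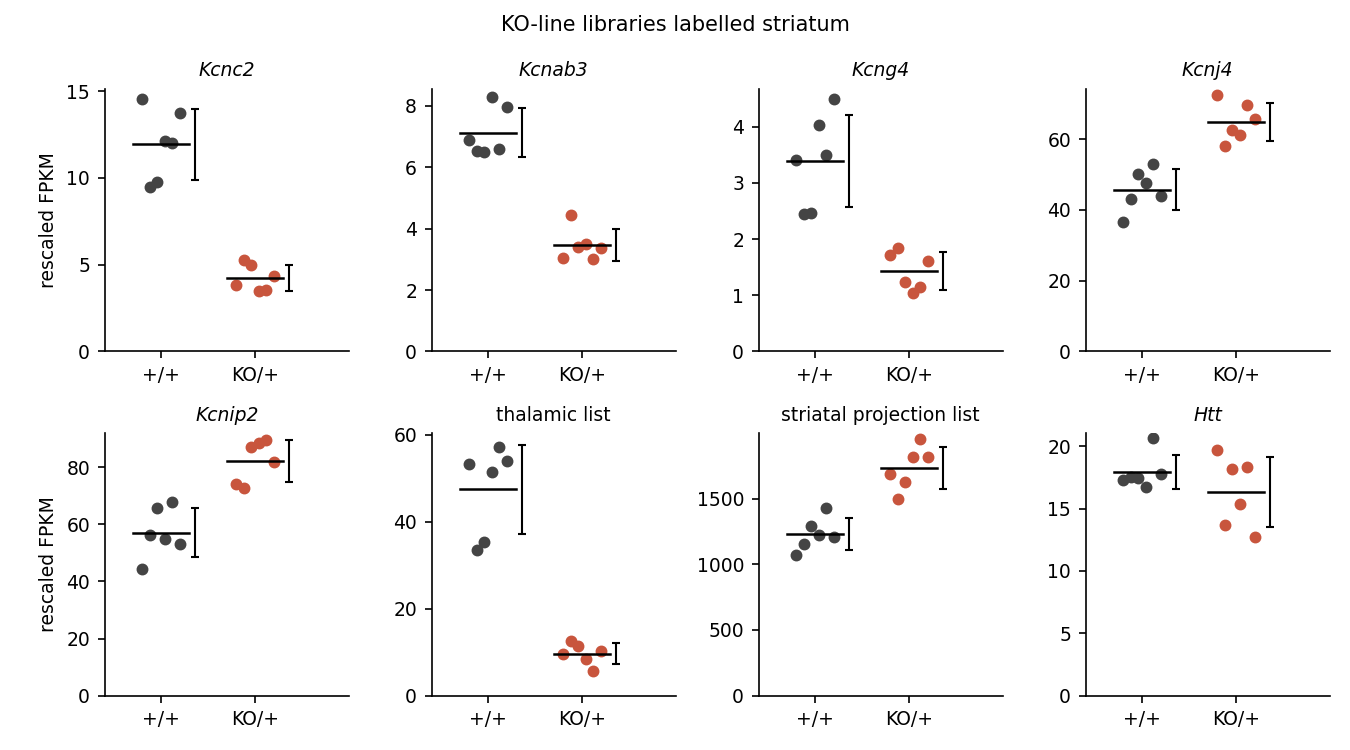
Values in the 12 KO-line libraries labelled striatum, 1 point per library, with mean (line) and SD (bar beside it), in rescaled FPKM from 0. Kcnc2, Kcnab3, Kcng4 and the summed thalamic list lie lower in all 6 KO/+ libraries, Kcnj4, Kcnip2 and the summed striatal projection list lie higher, and Htt overlaps.

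Markers of other regions and cells moved with the same labels. The summed thalamic markers, Tcf7l2 and Prkcd, ran from 33.6 to 57.2 rescaled FPKM in libraries labelled +/+ and from 5.63 to 12.6 in those labelled KO/+, and both markers were called lower (Prkcd by a log2 difference of -2.46, limma adjusted p = 0.00082). The summed striatal projection markers ran from 1071 to 1425 in +/+ and from 1500 to 1953 in KO/+, and 6 of 8 were called higher. Of 4 oligodendrocyte markers tested, 3 were called lower, of 5 astrocyte markers 1 (Aqp4), and of 4 interneuron markers 1 (Pvalb, by a log2 difference of -0.90, limma adjusted p = 0.0063). Of 7 cortical excitatory markers, 2 were called higher and 1 lower, and of 3 ependymal markers 1 was called higher. None of 4 choroid plexus, 4 microglial, 3 endothelial, 3 mural and 3 leptomeningeal markers was called by limma (median of summed choroid plexus markers 852 in +/+ and 986 in KO/+). In bulk tissue, fewer cells of a type and less RNA per cell cannot be told apart, and the part of these markers in the members' differences was not tested.

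The relation to thalamic markers was measured in the 12 KO-line libraries labelled cortex, which had not chosen these members. The thalamic list was taken for this after the values in labelled striatum were seen. No other marker list was set against these members there, so the relations are not shown to be particular to thalamic markers. Kcnc2 followed the summed thalamic markers there on the log2 scale (r = 0.94, rho = 0.97, permutation p of 2e-05 each, the smallest that 100000 resamples can give, adjusted p = 0.0001 over 5 relations, r = 0.91 without the 2 farthest libraries). Within the 6 +/+ libraries r was 0.95 and within the 6 KO/+ libraries 0.92 (exact permutation p = 0.00833 each). Kcnab3 gave r of 0.88 and rho of 0.86 (adjusted permutation p of 0.0001 and 0.0015), Kcnc1 0.81 and 0.84 (0.0014 and 0.002), Kcng4 0.76 and 0.71 (0.0054 and 0.0163) and Kcnip4 0.44 and 0.46 (0.144 and 0.136). Without the 2 farthest libraries, r was 0.81, 0.76, 0.56 and 0.28 in that order. Within +/+ and within KO/+, r was 0.81 and 0.90 for Kcnab3, 0.87 and 0.66 for Kcnc1, 0.43 and 0.85 for Kcng4 and -0.16 and 0.46 for Kcnip4.

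The same genotypes labelled cortex, whose 12 libraries are also striatum-like, gave 0 of 70 members called by limma (12 at an unadjusted p under 0.05), against 0.0885% of all entries. The summed thalamic markers overlapped there, from 8.17 to 31.8 rescaled FPKM in +/+ and from 3.65 to 21.0 in KO/+. For Kcnc2 the log2 difference was -0.47 ± 0.20 (SE, limma adjusted p = 0.33), for Kcnab3 -0.45 ± 0.14 (0.22) and for Kcnj4 0.08 ± 0.10 (0.76). Of the 29 members called in labelled striatum, 25 had the same sign in labelled cortex (86.2%), and of the 1084 entries called there and tested in both, 924 had (85.2%). The median size of the members' log2 differences was 0.42 in labelled striatum and 0.15 in labelled cortex. A direct test of the difference between the labelled tissues called 0 of 71 members and 0 of 15917 entries with limma (background 0%, 22 members at an unadjusted p under 0.05), so the effects are not shown to differ. The test took the libraries of both labelled tissues as independent, although the labels repeat the mouse numbers in both.

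**Figure D5:**
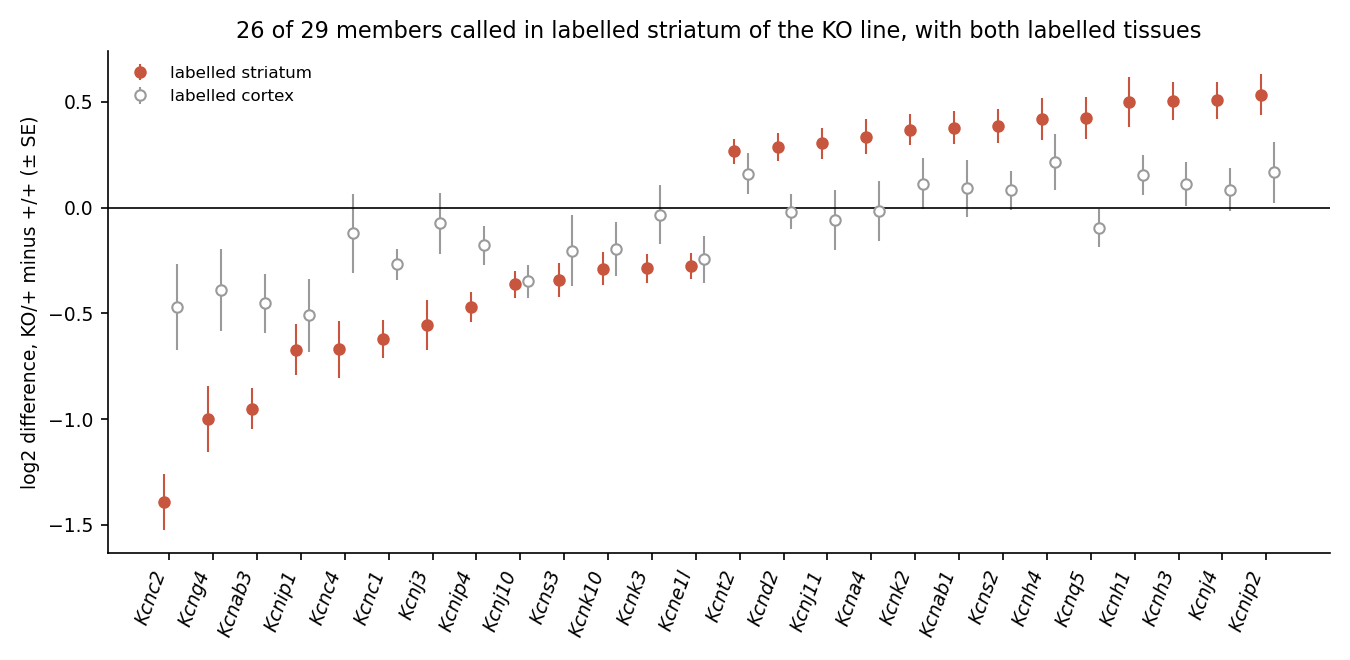
Log2 difference, KO/+ minus +/+, with its SE for 26 of the 29 members called in labelled striatum (red), beside the same members in labelled cortex (open grey), 6 libraries per group. In labelled striatum they run from -1.39 for Kcnc2 to 0.53 for Kcnip2, and in labelled cortex most lie closer to 0.

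In the Δ12 line, Δ12/Δ12 against +/+ labelled striatum called 18 of 71 members with limma (25.4%, 11 higher and 7 lower), while 28.3% of the 15467 entries tested were called, a share near the background. This comparison set 3 striatum-like and 3 cortex-like libraries labelled Δ12/Δ12 against 6 cortex-like +/+ libraries, and within Δ12/Δ12 the set coincided with labelled sex, so those 2 cannot be told apart there. The 5 members with the smallest adjusted p were Kcns1, Kcnip2, Kcnq3, Kcnh2 and Kcnd3. Kcnip2 shows the form of the values: it lay between 13.4 and 18.3 rescaled FPKM in +/+ and between 15.8 and 73.2 in Δ12/Δ12 (log2 difference 1.24 ± 0.29 SE, limma adjusted p = 0.030). Kcns1, a silent subunit, had means of 3.28 ± 0.37 and 2.03 ± 0.65 (SD; log2 difference -0.61, limma adjusted p = 0.029). Kcnq3, Kcnh2 (the hERG channel) and Kcnd3 (a Kv4 subunit) had log2 differences of 0.84, 0.97 and 0.67. With the set as a covariate, 0 members and 21 of all entries were called by limma. At an unadjusted limma p under 0.05 were 5 of 71 members and 2108 of 15467 entries. Leaving out any 1 of the libraries labelled female also left 0 called.

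The remaining labelled comparisons called no member with limma. Δ12/Δ12 against +/+ labelled cortex gave 0 of 71 (27 at an unadjusted p under 0.05) against 0.924% of all entries, again across the sets. Δ12/+ against +/+, where all libraries are cortex-like, gave 0 of 70 in labelled striatum, against 0.00663% of all entries. At an unadjusted limma p under 0.05 were 0 members there, against 486 of 15077 entries. In labelled cortex it gave 0 of 70 (2 at an unadjusted p under 0.05), against 0.0662% of all entries. The median SE of a member's log2 difference for Δ12/+ was 0.14 in labelled striatum and 0.16 in labelled cortex. It was 0.09 in the KO-line comparison of labelled striatum. Among the partner genes, KO/+ against +/+ labelled striatum called 1 of 20 higher and 3 lower (Hcn4 by a log2 difference of -0.85, limma adjusted p = 0.0011), against 6.91% of all entries in either direction. Δ12/Δ12 labelled striatum called 3 higher and 1 lower of 20, below the 28.3% of all entries, and the other 4 comparisons 0.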

How the data were processed

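Gene-level FPKM with confidence bounds, scaled by the authors for transcript length and library size, were deposited as 1 table for each library. The submitters' processing notes name TopHat2 2.0.14, Trimmomatic 0.30, SAMtools 1.3 and HTSeq 0.6.1p1 and the build GRCm38.p4. Whether strand was used in counting is not given in the sources used here. Tables were joined by gene identifier, symbol and locus, and 23 entries whose status was not OK throughout were dropped, none of them a member. FPKM were divided by median-of-ratios factors over the 60 libraries (0.761 to 1.376). Entries with a mean of at least 0.5 were kept. Labelled groups of 6 were compared with limma 3.58.1 in R 4.3.3 on log2(value + 0.5), with labelled sex as a covariate, 12 libraries per fit and Benjamini-Hochberg adjustment over all entries tested, so that fold changes of low genes are understated. Differences between sets are ratios of medians, without pseudocount or test. The p-values measure the spread between these libraries, which the labels tell apart by mouse number alone. The highest correlation of any 2 libraries was 0.9569. On simulated data for the KO/+ comparison of labelled striatum (15670 genes), 96 of 100 true changes of 1 and 52 of 100 of 0.5 on the log2 scale were found. A cAMP response element was searched as its palindromic consensus, the other motifs as printed, on both strands.

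Named members are the 2 most abundant of each class, the 10 with the largest differences between sets in each direction, up to 5 with the smallest adjusted p per comparison, a fixed list, and the highest of the family. Kcnj3, Kcnc4 and other members given with a value outside this rule were chosen after values were seen. Some members are not reported here by name. The members and all gene lists (cell type markers, partner genes) were chosen with earlier results of these data known. The length bins, the scaling within a fit, the sets within the Δ12 line, the class sum without Kcnt2, the relations to thalamic markers and the test of the difference between labelled tissues were added after the data were seen.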

Additional observations from a re-analysis of the deposited data

Results flagged for a closer look

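In groups of 6 libraries, a library was looked for whose distance from the nearest other library, over the range of the group, exceeded the 95% critical value of Dixon, in 20 groups of values: the summed level of the members in the 10 labelled groups, and the 5 members with the smallest adjusted p in the KO-line groups labelled striatum. It was found once, and chance gives about 1 in 20. Kcnab3 was at 4.43 rescaled FPKM in the male 2 library labelled striatum KO/+, above the next value of 3.49 and below all +/+ libraries.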

How the results depend on the processing

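Counts of called members rested on the fit. For Δ12/Δ12 against +/+ labelled striatum (18 members), no low-value filter gave 7 of 88 members, beside 2085 of 26461 entries. No sex covariate gave 0 members and 9 of 15467 entries, and the set as a covariate 0 and 21. All 30 libraries of the labelled tissue in 1 fit gave 40 of 71 members, beside 8067 of 15904 entries. Leaving out 1 library gave 0 to 29 members, the 29 beside 6208 of 15453 entries. For KO/+ against +/+ labelled striatum (29 members), FPKM as deposited gave 11, beside 306 of 15500 entries. All 30 libraries in 1 fit gave 8, beside 135 of 15904 entries, and leaving out 1 library gave 18 to 32, the 32 beside 1243 of 15817 entries. Leaving out male 1 or female 3 of +/+ gave 18 each, beside 560 of 15800 entries for male 1. Leaving out female 1 of +/+ or female 1 or female 2 of KO/+ gave 19 each. Labelled cortex gave 31 with all libraries for Δ12/Δ12 (0 to 17 when leaving out 1 library, 17 without male 2 of +/+) and 1 with FPKM as deposited for KO/+. The counts of all entries under these settings of labelled cortex are not given here, so these numbers are not set against a background. Members apart and higher in the cortex-like set (6) became 11 with FPKM as deposited, 13 with percentiles (10th against 90th) in place of ranges, and 11 within length bins. Of all entries, 20.86%, 27.3% and 14.35% were so. Members higher in the striatum-like set (24) became 15 with FPKM as deposited, against 9.875% of all entries. The summed calcium- and sodium-activated channels turned from a log2 difference of 0.96, cortex-like minus striatum-like, to -0.29 without Kcnt2. The test of the difference between labelled tissues gave 0 to 1 when leaving out 1 library, 1 without the female 2 library of KO/+ labelled cortex. The cause was not tested.

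A replicate block on labelled sex and mouse number gave 0 members for Δ12/Δ12 labelled striatum, beside 5 of 15467 entries. It gave 11 for KO/+ labelled striatum, beside 302 of 15808 entries, and 0 in the other comparisons. Same-numbered libraries did not deviate together (mean correlations of -0.09 to 0.01), so the numbers do not pair the libraries. No named member whose ranges were apart changed direction between the sets under any alternative run. Where depth was low, the deposited bounds limit what can be said, as for Kcnk6 and Kcnmb1 and for Kcne2 in the cortex-like set.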
